A study of Mus musculus with 117 samples.

Results

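The regions described here are H3K4me3 peaks of mouse embryonic fibroblasts (MEF) that overlapped an H3K27me3 peak of the same cells by at least 1 bp and did not overlap any H3K27me3 peak of embryonic stem (ES) cells. The members were thus chosen by peaks of these 3 lists, and their own overlaps with them are a description. The rule selected 123 of the 15052 H3K4me3 peaks of MEF, whereas 6.96% of all 15052 overlapped H3K27me3 of ES cells. H3K4me3 is laid down at the start sites of genes by the Set1 and Mll methyltransferase complexes, and H3K27me3 is laid down by Polycomb repressive complex 2 (PRC2). Regions that carry both marks are called bivalent, are known best from the promoters of developmental genes in ES cells, and usually show little transcription. H3K27ac, which sits on the same lysine as H3K27me3 and marks active promoters and enhancers, is generally absent where H3K27me3 is present.

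The study asked what SUMO, a small protein attached to other proteins, does in cell identity. It depleted Ubc9, the E2 enzyme that transfers SUMO, with a short hairpin RNA. The D4 shUbc9 and D4 shCtrl groups were fibroblasts of E13.5 embryos at passage 1 in which the OKSM factors (Oct4, Klf4, Sox2 and Myc) had been expressed for 4 days, with a hairpin against Ubc9 or a control hairpin. The ES cells (passages 15 to 20) and the MEF of the ChIP-seq lists (E13.5, passage 1) were wild type. RNA-seq was done on 3 libraries each of D4 shUbc9 and D4 shCtrl, with 25.1 to 56.6 M gene counts per library. Fibroblast and ES cells differ in passage as well as in type, and D4 cultures are mixed populations of cells at different points of reprogramming.

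Each ChIP-seq list is 1 merged list from 2 replicates, so there is no spread between replicates and no test of any difference between lists. Shares carry exact 95% binomial (Clopper-Pearson) intervals that cover counting error only. The marks were measured in bulk, and whether both lay on the same chromosome of the same cell was not measured. Nor can fewer cells with a mark be told apart from less of the mark per cell.

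The 123 regions were a small and weak fraction of the fibroblast H3K4me3 list. Of all 15052 H3K4me3 peaks, 266 (1.77%) overlapped H3K27me3 in MEF, and 143 of these also overlapped H3K27me3 in ES cells. The authors' peak score of the 123 regions had a median of 1172, with the lowest at 545 and the highest at 4744, against a median of 3744 over all H3K4me3 peaks. Their median width was 1120 bp, against 1618 bp over all peaks. The authors' fold enrichment had a median of 7.87, against 13.6. The 143 peaks shared with ES cells had a median score of 945, fold enrichment of 6.89 and width of 1411 bp. Low scores were thus not particular to the 123 regions. The H3K27me3 peaks of MEF covered a median of 38.1% of a region's length. In 50 regions they covered at least 50%, and in 10 the whole region.

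The name fibroblast-specific holds for these regions only as the rule defines it. The ES list of H3K27me3 held 5237 peaks over 8.04 Mb and the MEF list 11276 peaks over 18.4 Mb, so a missing ES peak was read from a shorter list. An ES H3K27me3 peak lay within 1 kb of 35 regions and within 5 kb of 41, whereas 82 were farther than 5 kb and 60 farther than 100 kb from any. In 15 regions, all among the 41 near ones, the H3K4me3 peak of ES cells over the region did itself reach an ES H3K27me3 peak. The region nearest to an ES H3K27me3 peak, chr10:44248897-44250026 (build mm9, as are all positions here), lay 50 bp from it. The smallest overlap with H3K27me3 of MEF, 5 bp, was at chr13:22097665-22098833, and H3K27me3 peaks there covered 92.8% of the region at D4 shUbc9 and 100% at D4 shCtrl. Just outside the rule, the H3K4me3 peaks chr6:51562365-51563097 and chr6:90937815-90938428 were left out by an ES overlap of 4 bp each.

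The regions were spread over the autosomes. They were 14 of the 1243 H3K4me3 peaks of MEF on chromosome 11, 13 of 946 on chromosome 4, 10 of 772 on chromosome 10 and 10 of 665 on chromosome 13. On X they were 0 of 496, beside 123 of 15052 over all chromosomes, and no difference between chromosomes was tested. Only 8 of the regions had another of the regions within 50 kb, in 4 pairs. Positions of genes on mm9 were not used here, so the regions are named by position and no gene is assigned to them.

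In ES cells the regions kept H3K4me3, and a minority held H3K27ac. An H3K4me3 peak of ES cells covered part of 112 regions (91.1%, interval 84.6% to 95.5%), against 93.5% of all H3K4me3 peaks of MEF. H3K27ac of ES cells was present at 42 regions (34.1%, interval 25.8% to 43.2%), against 64% of all peaks. All 42 also held H3K4me3 in ES cells. Another 70 regions (56.9%) held H3K4me3 without H3K27ac there, against 29.8% of all peaks, and 11 (8.94%) held neither, against 6.22%.

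H3K27ac of ES cells was at different shares near to and far from ES H3K27me3, which was not tested. It was present at 6 of the 41 regions within 5 kb and at 36 of the 82 farther away. Over the 143 fibroblast bivalent peaks, set apart by their overlap with H3K27me3 in ES cells, it was present at 1.40%. Over the 14786 H3K4me3 peaks without H3K27me3 in MEF it was present at 64.8%. The 3545 peaks of that last set whose scores fell in the lowest 25% of the H3K4me3 list held it at 34.2%, a share close to that of the 123 regions. Of those 3545 peaks, 8.38% overlapped H3K27me3 of ES cells, whereas the regions overlapped none by the rule. The part of the low H3K4me3 scores of the regions in their ES H3K27ac share was not tested.

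H3K27ac of MEF was rare at the regions. It overlapped 12 of them (9.76%, interval 5.14% to 16.4%), against 79.5% of all H3K4me3 peaks and 44.0% of the peaks in the lowest 25% of scores without H3K27me3. The 143 fibroblast bivalent peaks shared with ES cells held it at 14.0%, so its rarity was not particular to the 123 regions. Of these 12 regions, 10 held H3K27ac at D4 shUbc9 and 10 at D4 shCtrl, and 5 held it in ES cells. H3K27ac was present in none of ES cells, D4 shUbc9, D4 shCtrl and MEF at 57 of the 123 regions (46.3%), against 8.12% of all peaks. It was in ES cells alone at 26 regions (21.1%), against 2.06%, and in all 4 at 3 (2.44%), against 54.7%.

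H3K4me1, a mark of enhancers, was present in ES cells at 9 regions (7.32%, interval 3.40% to 13.4%, against 9.08% of all peaks) and in MEF at 3 (2.44%, interval 0.506% to 6.96%, against 6.6%), both intervals holding the background. With a peak within 1 kb counted, the share in ES cells was 14.6%. The share of all peaks within 1 kb is not given here, and the 9.08% holds for 1 bp of overlap, so the 14.6% has no background. H3K9me3, the heterochromatin mark, had 1 peak over the regions in ES cells, against 0.332% of all H3K4me3 peaks, and 0 in MEF, against 0.146%, both near the background. In MEF, 0 of 123 allows a share of up to 2.44% by the limit of 3 counts and 2.95% by the exact interval. Peaks of SUMO-1 or SUMO-2 lay over 3 regions in ES cells and over 3 in MEF. SUMO-1 covered 2.44% of the regions in each, against 3.14% of all peaks in ES cells and 9.92% in MEF. SUMO-2 covered 2 regions in ES cells, against 3.03% of all peaks, and 1 in MEF, against 3.97%.

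**Figure D1:**
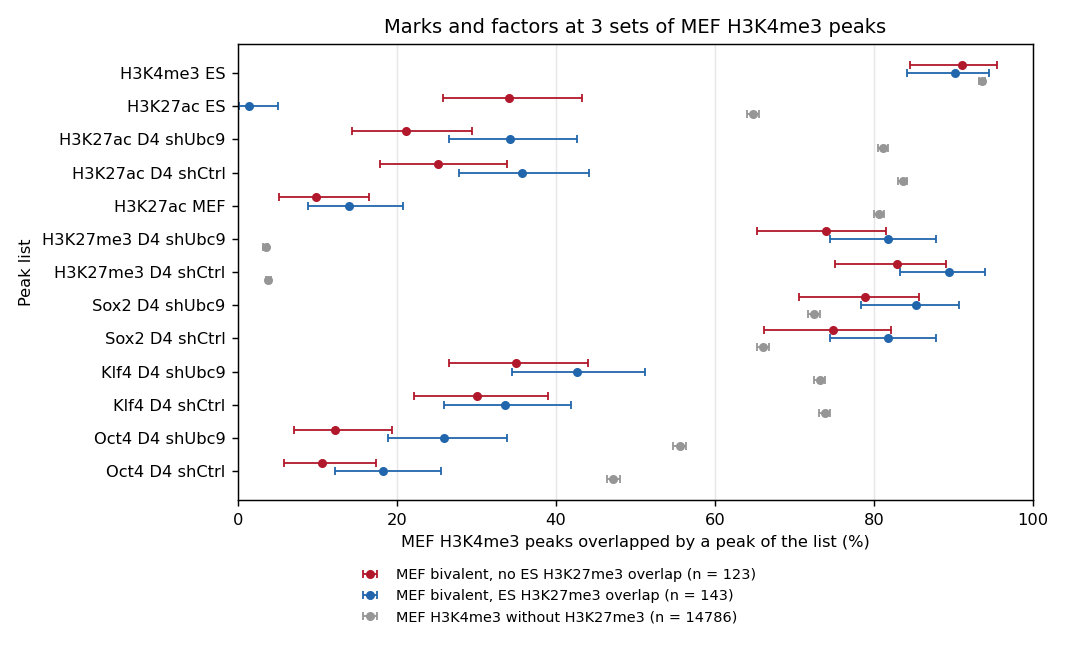
Share of H3K4me3 peaks of MEF (x axis, %) overlapped by at least 1 bp by a peak of each list (y axis), for the 123 regions (red), the 143 fibroblast bivalent peaks with H3K27me3 in ES cells (blue) and the 14786 peaks without H3K27me3 in MEF (grey), with exact 95% binomial intervals as bars. The 123 regions hold H3K27ac of ES cells at 34.1%, against 1.40% for the blue set, which was chosen by H3K27me3 of ES cells. H3K27me3 at D4 is at 74.0% (shUbc9) and 82.9% (shCtrl) of the 123 regions, against 81.8% and 89.5% of the blue set. The grey set, chosen to lack H3K27me3 in MEF, holds it at 3.45% and 3.79%.

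After 4 days of reprogramming factors most of the regions still carried both marks, and somewhat fewer did so in the cells with the Ubc9 hairpin. H3K4me3 was present at all 123 regions in D4 shUbc9 and at 122 in D4 shCtrl, against 98.6% and 97.8% of all H3K4me3 peaks of MEF. The 1 region with H3K4me3 in D4 shUbc9 alone compares with 0.97% of all peaks, and 0 regions with it in D4 shCtrl alone with 0.166%. H3K27me3 was present at 91 regions in D4 shUbc9 (74.0%, interval 65.3% to 81.5%) and at 102 in D4 shCtrl (82.9%, interval 75.1% to 89.1%), against 4.77% and 5.25% of all peaks. Most of all peaks lacked H3K27me3 in MEF, by which the regions were chosen. Over the 143 fibroblast bivalent peaks that overlapped H3K27me3 in ES cells, the shares at D4 were 81.8% in shUbc9 and 89.5% in shCtrl. The intervals of the D4 shUbc9 and D4 shCtrl shares of the 123 regions overlap. Both shares come from the same regions, so this overlap does not measure the difference between them. The difference of -8.94 percentage points (D4 shUbc9 minus D4 shCtrl) was -2 over the 50 regions covered by at least 50% in MEF, -2.82 over the 71 left when the MEF list of H3K27me3 was shortened to the length of the ES list, and -4.88 when a peak within 1 kb was counted. Both marks stood together at 91 regions in D4 shUbc9 and at 101 in D4 shCtrl, against 4.65% and 5.06% of all peaks. H3K4me3 stood alone at 32 regions in D4 shUbc9 (26.0%) and at 21 in D4 shCtrl (17.1%), against 94% and 92.8% of all peaks.

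The D4 lists of H3K27me3 differed at 17 of the 123 regions. H3K27me3 was present in both D4 lists at 88 regions, in D4 shUbc9 alone at 3, in D4 shCtrl alone at 14, and in neither at 18. Over all H3K4me3 peaks of MEF, 0.751% had it in D4 shUbc9 alone and 1.23% in D4 shCtrl alone. Of the regions with the mark in D4 shCtrl, 13.7% lacked it in D4 shUbc9. The same measure was 10.9% over the 143 peaks shared with ES cells and 23.4% over all H3K4me3 peaks, so the share of the 123 regions lay between these. H3K27me3 lists of similar length underlay these counts, with 7307 peaks over 22.3 Mb in D4 shUbc9 and 7236 peaks over 22.7 Mb in D4 shCtrl. The lists ended at different scores, however, with the lowest at 240 in D4 shUbc9 and 170 in D4 shCtrl (medians 372 and 271). The part of this in the counts was not tested. Of all 11276 H3K27me3 peaks of MEF, 43.1% overlapped H3K27me3 in D4 shUbc9 and 46.2% in D4 shCtrl, and of the 295 that lay on H3K4me3 peaks of MEF, 78.0% and 85.4%.

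**Figure D2:**
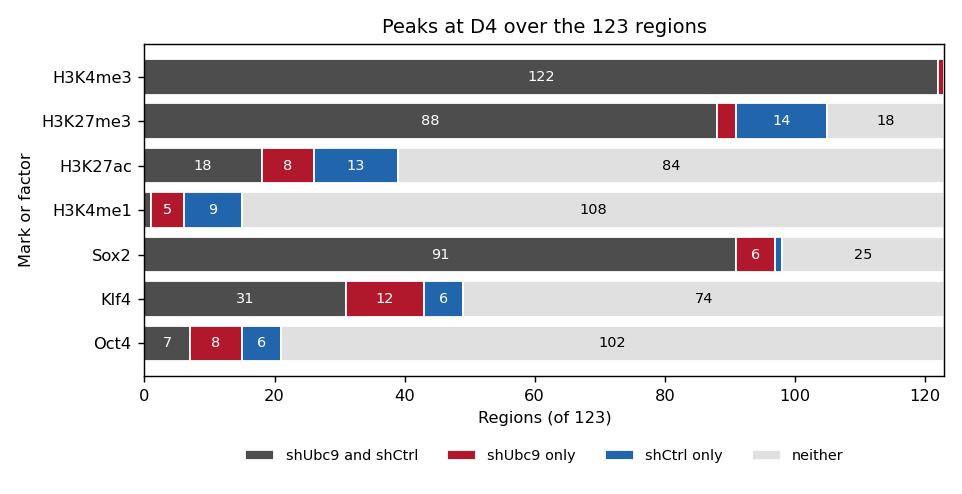
Number of the 123 regions (x axis) that held a peak of each mark or factor (y axis) at D4 in shUbc9 and shCtrl (dark grey), shUbc9 only (red), shCtrl only (blue) or neither (light grey). H3K27me3 is in both lists at 88 regions and in shCtrl only at 14, and Sox2 is in both at 91.

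H3K27me3 peaks covered a larger median part of a region at D4 than in MEF, although 32 regions in D4 shUbc9 and 21 in D4 shCtrl had none. The median share of a region's length covered was 68.7% in D4 shUbc9, 75.3% in D4 shCtrl and 38.1% in MEF, and the mean was 56.9%, 61.3% and 46.8%. Coverage was larger at D4 than in MEF at 76 regions in shUbc9 and at 84 in shCtrl. The D4 peaks were longer throughout, with a median of 2431 bp in D4 shUbc9 and 2461.5 bp in D4 shCtrl against 1199.5 bp in MEF over the whole lists, and the part of this general lengthening in the wider cover was not tested.

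Between the D4 groups, coverage was lower in D4 shUbc9 at 52 regions, higher at 30 and equal at 41, of which 23 were wholly covered in both lists and 18 uncovered in both. It was lower by more than 25 percentage points at 18 regions and higher by more than 25 at 7. At least 50% of the length was covered at 69 regions in D4 shUbc9 and at 76 in D4 shCtrl.

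Regions with H3K27me3 in D4 shCtrl alone were covered over a smaller part of their length there than those with it in both lists. Their median cover in D4 shCtrl was 31.8%, against 93.8% at the 88 regions with the mark in both lists, and the range ran from 0.695% to 96.0%. In MEF their median cover was 26.8%, against 47.9% at the 88. Regions at least 50% covered in MEF held H3K27me3 at D4 in 44 of 50 cases in shUbc9 and in 45 of 50 in shCtrl, whereas those covered below 50% held it in 47 and 57 of 73 cases. Cover in MEF was part of how the regions were chosen, and this split is a description.

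**Figure D3:**
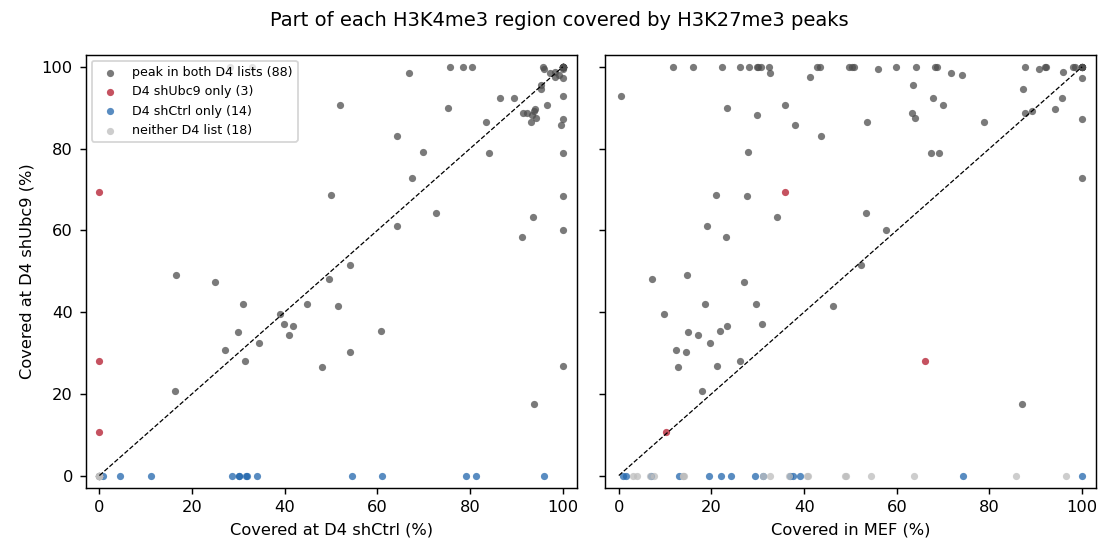
Share of each region's length covered by H3K27me3 peaks at D4 shUbc9 (y axis, %) against D4 shCtrl (left, x axis, %) and against MEF (right, x axis, %), 1 point per region, coloured by the D4 lists that held a peak there, with the dashed line at equality. The 14 points of D4 shCtrl alone lie on the floor of both panels with a median of 31.8% on the left x axis, and 76 of 123 points lie above the line on the right.

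H3K4me3 itself was broader at D4 and in ES cells than in MEF over the regions. The summed width of the peaks over a region had a median of 1620 bp in D4 shUbc9, 1553 bp in D4 shCtrl and 1120 bp in MEF. It was larger than in MEF at 110 regions in D4 shUbc9 and at 110 in D4 shCtrl (89.4% each), against 68.3% and 74.4% of all H3K4me3 peaks. In ES cells it was larger at 105 of the 112 regions with an ES peak (93.8%), against 69.3% of all, and the median was 2040 bp. The regions were single and short peaks in MEF, while several peaks could be summed in the other lists. Distinct H3K4me3 peaks numbered 125 over 123 regions in D4 shUbc9, 123 over 122 in D4 shCtrl and 115 over 112 in ES cells. The part of short MEF peaks and of summing in the difference was not tested. Between the D4 groups the summed width was larger in D4 shUbc9 at 66 regions and smaller at 57. The number of H3K4me3 peaks that overlapped H3K27me3 over the whole genome was 2119 of 18698 (11.3%) in D4 shUbc9, 1710 of 16322 (10.5%) in D4 shCtrl, 2295 of 26309 (8.72%) in ES cells and 266 of 15052 (1.77%) in MEF. The H3K27me3 lists are unlike, with median widths of 2431 bp, 2461.5 bp, 1178 bp and 1199.5 bp in the same order. The peak threshold of each list is not known. The part of these list differences in the shares was not tested.

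H3K27ac at D4 was present at 26 regions in D4 shUbc9 (21.1%, interval 14.3% to 29.4%) and at 31 in D4 shCtrl (25.2%, interval 17.8% to 33.8%), against 80.2% and 82.7% of all peaks. It was in both D4 lists at 18 regions, in D4 shUbc9 alone at 8 and in D4 shCtrl alone at 13, against 2.59% and 5.02% of all peaks. Peaks of H3K27ac and H3K27me3 lay over the same region at 14 regions in D4 shUbc9 (11.4%) and at 22 in D4 shCtrl (17.9%), against 0.837% and 1.44% of all peaks, few of which held H3K27me3. Of the 18 regions without H3K27me3 in either D4 list, 9 held H3K27ac in D4 shUbc9 and 7 in D4 shCtrl, against 14 and 18 of the 88 with H3K27me3 in both. The 14 regions with H3K27me3 in D4 shCtrl alone held H3K27ac at 3 in D4 shUbc9 and at 4 in D4 shCtrl. Over all 32 regions without H3K27me3 in D4 shUbc9, H3K27ac was at 12 in D4 shUbc9 and at 11 in D4 shCtrl, and over the 91 with it at 14 and 20. In ES cells 8 of the 14 regions with H3K27me3 in D4 shCtrl alone held H3K27ac, against 28 of the 88 with it in both D4 lists.

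H3K4me1 was present at 6 regions in D4 shUbc9 and at 10 in D4 shCtrl, against 15.4% and 14% of all peaks, and only 1 region held it in both. It was in D4 shUbc9 alone at 5 and in D4 shCtrl alone at 9, against 8.47% and 7% of all peaks. H3K9me3 was present at 0 regions in either D4 list, against 0.179% of all peaks in D4 shUbc9 and 0.133% in D4 shCtrl, and 0.0664% and 0.0199% had it in D4 shUbc9 alone and D4 shCtrl alone.

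Of the 3 reprogramming factors with peak lists, Sox2 covered most of the regions, Klf4 a minority and Oct4 few. Sox2 was present at 97 regions in D4 shUbc9 (78.9%, interval 70.6% to 85.7%) and at 92 in D4 shCtrl (74.8%, interval 66.2% to 82.2%), against 72.7% and 66.3% of all H3K4me3 peaks. Klf4 was present at 43 in D4 shUbc9 (35.0%, interval 26.6% to 44.1%) and at 37 in D4 shCtrl (30.1%, interval 22.1% to 39.0%), against 72.6% and 73.1% of all peaks. Oct4 was present at 15 in D4 shUbc9 (12.2%, interval 6.99% to 19.3%) and at 13 in D4 shCtrl (10.6%, interval 5.75% to 17.4%), against 54.9% and 46.7%. The regions therefore stood near the background for Sox2 and below it for Klf4 and Oct4.

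Sox2 was mostly found without the other factors. Sox2 alone covered 57 regions in D4 shUbc9 (46.3%) and 63 in D4 shCtrl (51.2%), against 9.47% and 9.07% of all H3K4me3 peaks. All 3 factors covered 12 regions in D4 shUbc9 (9.76%) and 10 in D4 shCtrl (8.13%), against 45.6% and 37.5%. Sox2 was in both D4 lists, with no Klf4 or Oct4 in either, at 50 regions (40.7%), against 6.15% of all peaks. The 143 fibroblast bivalent peaks shared with ES cells were alike, with Sox2 alone at 42.7% in D4 shUbc9 and 51.0% in D4 shCtrl. Among the H3K4me3 peaks in the lowest 25% of scores without H3K27me3, Sox2 was present at 55.6% in D4 shUbc9 and at 49.6% in D4 shCtrl, Klf4 at 50.4% and 49.8%, and Oct4 at 33.4% and 26.7%.

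The Sox2 peaks over the regions were long. Their summed width had a median of 2998 bp in D4 shUbc9 and 3189 bp in D4 shCtrl, against medians of 1228 bp and 1207 bp over the whole Sox2 lists. Over the same regions the H3K27me3 peaks had medians of 2617 bp in D4 shUbc9 and 2856.5 bp in D4 shCtrl. Klf4 peaks there had medians of 2143 bp in D4 shUbc9 and 1805 bp in D4 shCtrl, against 1128 bp and 1122 bp over the Klf4 lists. A region under a longer peak is more easily overlapped, and the part of peak length in these shares was not tested.

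Between the D4 groups, Sox2 was in D4 shUbc9 alone at 6 regions and in D4 shCtrl alone at 1, against 9.5% and 3.13% of all peaks. Klf4 was in D4 shUbc9 alone at 12 regions and in D4 shCtrl alone at 6, against 4.47% and 4.97%. Oct4 was in D4 shUbc9 alone at 8 regions and in D4 shCtrl alone at 6, against 15% and 6.7%. All 3 factor lists were longer in D4 shUbc9, with 27514, 37505 and 23477 peaks for Sox2, Klf4 and Oct4 against 20197, 34163 and 16740 in D4 shCtrl. With the longer list shortened to the length of the shorter one, the difference became -4.07 percentage points for Sox2, against 4.07 with the lists as deposited, -0.81 against 1.63 for Oct4, and 2.44 against 4.88 for Klf4, which kept its sign.

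Factor peaks were also counted by the state of the regions in other cells. Klf4 was present at 22 of the 42 regions with H3K27ac in ES cells in D4 shUbc9 and at 20 of 42 in D4 shCtrl, against 21 and 17 of the 81 without H3K27ac in ES cells. Of the 12 regions with H3K27ac in MEF, 10 held Klf4 in each D4 group, and Oct4 was at 5 in D4 shUbc9 and at 7 in D4 shCtrl. Where H3K27me3 covered at least 50% of the region in MEF, Klf4 was at 10 of 50 in D4 shUbc9 and at 8 of 50 in D4 shCtrl, and Sox2 at 37 of 50 in each.

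**Figure D4:**
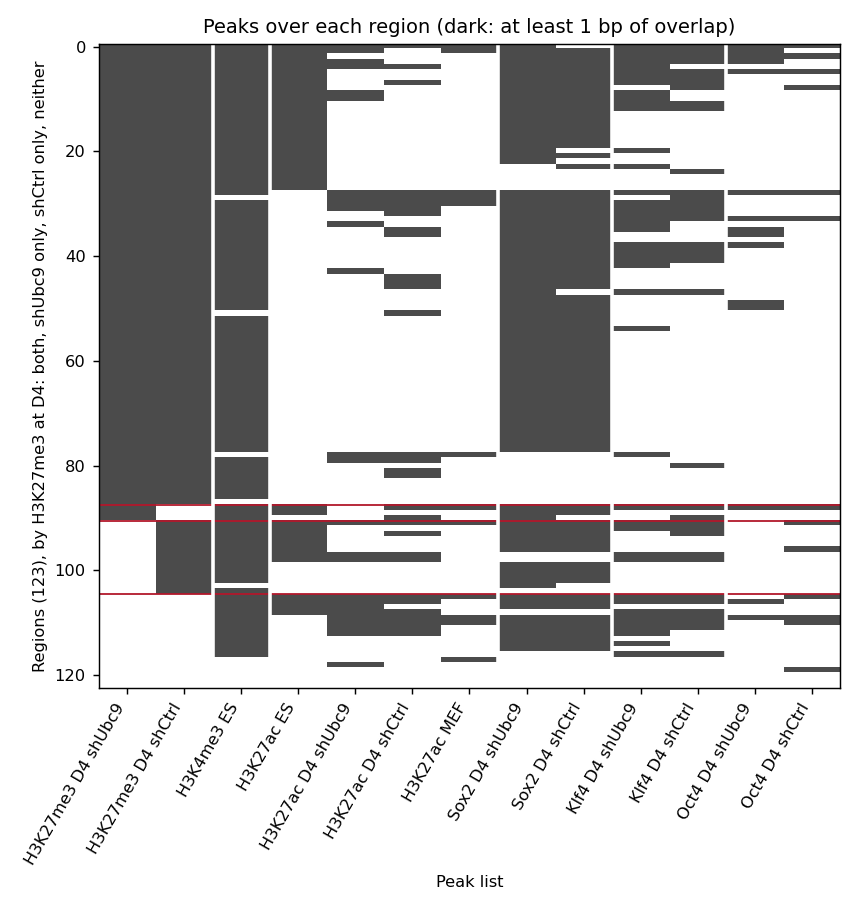
Peaks (dark cells, at least 1 bp of overlap) of 13 lists (x axis) over each of the 123 regions (rows, y axis), with red lines between the regions that held H3K27me3 at D4 in both lists (88, top), in shUbc9 only (3), in shCtrl only (14) and in neither (18, bottom). Sox2 and H3K4me3 of ES cells fill most rows, whereas Oct4 and H3K27ac of MEF fill few.

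Single regions show how these states combine. Per region, between 2 and 15 of the 27 other lists held a peak, with a median of 8. The highest H3K4me3 score in MEF among the regions, 4744, was at chr11:95864450-95869539, which is 5090 bp long. H3K27me3 covered 36.5% of it in D4 shUbc9, 41.7% in D4 shCtrl and 23.3% in MEF, and 15 other lists had a peak there, including H3K27ac in ES cells, D4 shUbc9, D4 shCtrl and MEF and Oct4 and Klf4 in both D4 groups. Sox2 was there in D4 shUbc9 alone. The region chr13:112280460-112281473 likewise had peaks of 15 other lists, among them SUMO-1 and SUMO-2 of MEF, and its H3K27me3 peak at D4, over 10.6% of the length, was in D4 shUbc9 alone. The other regions with H3K27me3 in D4 shUbc9 alone were chr4:128331811-128333134, covered over 69.3%, and chr1:158868606-158870370, covered over 28.1%. At each of these 3, H3K27ac had no peak in D4 shUbc9, as at 97 of all 123 regions.

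Among the 14 regions with H3K27me3 in D4 shCtrl alone, the highest MEF scores were at chr11:84325617-84327667, chr8:122098156-122099546 and chr13:51888315-51889162. H3K27me3 covered 11.1%, 28.6% and 81.4% of them in D4 shCtrl, and H3K27ac of ES cells had a peak over each. The first of these lay 467 bp from an ES H3K27me3 peak and overlapped H3K27me3 of MEF by 19 bp. Of the 18 regions without H3K27me3 at D4, chr15:100251448-100254595 had the highest score, 4364, with H3K27me3 of MEF over 3.84% of its length and H3K27ac in D4 shUbc9, D4 shCtrl and MEF. The next were chr11:109173264-109174343 and chr12:100157653-100159617, both with H3K27ac in each D4 group and in ES cells.

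Further regions with both marks in both D4 groups were chr9:55174050-55175119, where H3K27me3 covered 83.0% in D4 shUbc9 and 64.2% in D4 shCtrl, and chr4:8573971-8575879 and chr10:7308964-7310729, each with peaks of 14 other lists. At chr4:8573971-8575879, all 3 factors had peaks in both D4 groups and the nearest ES H3K27me3 peak was 1192940 bp away.

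The RNA libraries were used to describe the genes whose products set, read and remove the marks. Over all genes, the edgeR quasi-likelihood test called 27.2% higher and 26.1% lower in D4 shUbc9, 53.2% of 17001 in all, with a median log2 fold change of -0.0057. The summed CPM (counts scaled to a common library size) of 7 fibroblast marker genes was 18340 to 20350 in D4 shUbc9 and 26770 to 36350 in D4 shCtrl, and that of 7 ES markers, among them Pou5f1, which the cassette also encodes, 48.7 to 60.7 and 28.1 to 38.4. No marker was at 0 in either D4 group. In ES cells with a control small interfering RNA the ES markers summed to 3004 to 3197 CPM, against 0.659 to 0.841 CPM in MEF with the control hairpin, where Sall4 was at 0. At D4, the sum of the MEF markers was lower and that of the ES markers higher in every D4 shUbc9 library than in any D4 shCtrl library. The most abundant genes weigh most in such sums, and single markers were not compared. The part of this shift in the values below was not tested.

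Of 39 genes of Polycomb complexes, H3K4 methyltransferase complexes and demethylases, all tested, 23 changed, 6 higher and 17 lower in D4 shUbc9, with a median log2 fold change of -0.30. Lower calls thus made up 17 of 39 against 26.1% over all genes, and higher calls 6 of 39 against 27.2%. The list was chosen for its function, and no test of the list as a whole was made.

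PRC2, which writes H3K27me3, had 5 of 11 genes changed, near the 53.2% called over all genes. Eed, the subunit that binds H3K27me3, was at 56.7, 56.1 and 66.2 CPM in D4 shUbc9 and at 46.3, 48.0 and 43.1 CPM in D4 shCtrl, a rise of 0.38 ± 0.081 on the log2 scale (edgeR adjusted p = 0.0038). Mtf2, a Polycomb-like subunit that binds CpG-rich DNA, rose as well. The alternative methyltransferase Ezh1 was at 43.0, 42.7 and 40.5 CPM in D4 shUbc9 and at 52.4, 60.5 and 58.9 CPM in D4 shCtrl, and fell by 0.45 ± 0.072 (edgeR adjusted p = 0.00079). The Polycomb-like subunits Phf19 and Phf1 fell by 0.63 ± 0.097 and 0.55 ± 0.10. The libraries of the groups did not overlap for any of these 5 genes. The main methyltransferase Ezh2 was at 39.3, 43.1 and 43.6 CPM in D4 shUbc9 and at 42.5, 37.3 and 37.8 CPM in D4 shCtrl, with overlapping groups, a log2 fold change of 0.10 ± 0.076 and an edgeR adjusted p of 0.28. Suz12, the core subunit that holds PRC2 together, had a log2 fold change of 0.13 ± 0.067 (edgeR adjusted p = 0.12).

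PRC1, which reads H3K27me3 and ubiquitylates histone H2A, had 10 of 12 genes changed, 8 of them lower. Cbx6, a chromobox subunit, was at 109, 106 and 94.9 CPM in D4 shUbc9 and at 276, 248 and 277 CPM in D4 shCtrl, and fell by 1.37 ± 0.076 on the log2 scale (edgeR adjusted p = 3.2e-06). Pcgf2, a RING-finger partner of the catalytic subunits, fell by 1.10 ± 0.17, and Cbx2, a chromobox subunit that compacts chromatin, by 0.42 ± 0.074. Phc1, Phc2, Phc3 and Ring1 fell too, with overlapping groups for Phc3. The catalytic subunit Rnf2 and its partner Bmi1 rose, with Bmi1 at 56.9, 61.5 and 66.8 CPM in D4 shUbc9 and at 46.6, 50.05 and 39.3 CPM in D4 shCtrl.

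The H3K4 methyltransferase complexes had 6 of 11 genes changed, again near the 53.2% over all genes. Kmt2a, the methyltransferase Mll1, was at 68.6, 82.4 and 46.0 CPM in D4 shUbc9 and at 156, 96.7 and 167 CPM in D4 shCtrl, and fell by 1.09 ± 0.23 on the log2 scale (edgeR adjusted p = 0.0039). Cxxc1, the CpG-binding subunit of the Set1 complexes, fell by 0.42 ± 0.067. The methyltransferase Setd1a fell by 0.57 ± 0.17 (edgeR adjusted p = 0.019) and its groups overlapped. The call did not hold when 1 library was left out, in 4 of the 6 cases, with an adjusted p of 0.056 to 0.077. Setd1b fell, also with overlapping groups, and its call was not followed with 1 library left out. The shared core subunits Wdr5 (0.33 ± 0.077) and Rbbp5 rose. The second D4 shCtrl library was the lowest of its group for Kmt2a, Kmt2b, Kmt2c, Kmt2d, Setd1a and Setd1b, at 80.9 CPM of Kmt2d beside 172 and 210 CPM in the others. Replicate 3 of D4 shUbc9 was the lowest of its own group for the same genes, at 51.5 CPM of Kmt2d beside 85.4 and 115 CPM. Without the second D4 shCtrl library, 27 of the 39 genes were called, and without replicate 3 of D4 shUbc9, 20.

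Of the demethylases, Kdm5b and Kdm5c, which remove H3K4 methylation, fell by 0.36 ± 0.088 and 0.35 ± 0.077 on the log2 scale. The H3K27 demethylases Kdm6a and Kdm6b were not called, with log2 fold changes of -0.11 ± 0.061 and -0.50 ± 0.29 (edgeR adjusted p = 0.15 and 0.17). Kdm6b was at 27.5, 29.9 and 16.9 CPM in D4 shUbc9 and at 43.1, 20.1 and 43.1 CPM in D4 shCtrl, so its groups overlapped.

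**Figure D5:**
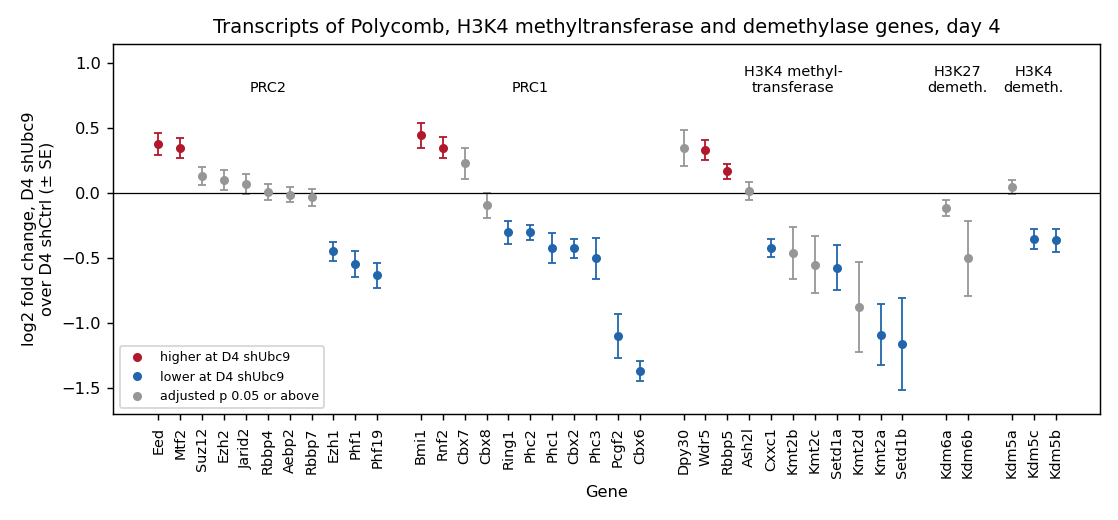
Fitted log2 fold change of D4 shUbc9 over D4 shCtrl (y axis, with SE as bars, 3 libraries a group) for 38 of the 39 genes (x axis) by group, coloured by the edgeR call: higher (red), lower (blue) or adjusted p of 0.05 or above (grey). The lowest value is that of Cbx6 at -1.37, and Ezh2 and Suz12 lie near 0.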

How the data were processed

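For ChIP-seq the authors deposited 1 merged peak list per antibody and condition, on build mm9, with a score and a fold enrichment ratio per peak, which are the authors' own values and were used only to describe and rank peaks within a list. Bowtie, MACS2 and bedtools 2.19.1 are the tools named for them in the submitters' processing notes. The sources used here do not give a threshold for peaks. Of 32 lists, 30 were used; repeated lines were removed. Input and ATAC-seq samples were not analysed here.

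The authors deposited RNA-seq as a read count per gene, with no normalization, in a table of 26301 genes with all 28 columns matched to labels. The notes name STAR 2.5.0a, featureCounts and DESeq2. The sources used here do not give multi-mapping and strand settings. Symbols came from a name table of another assembly, and 24191 identifiers matched.

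Overlaps were computed in Python 3.11.15 and checked against bedtools 2.31.1. Counts of D4 shUbc9 and D4 shCtrl were fitted across all genes with edgeR 4.0.16 in R 4.3.3 (TMM, filterByExpr with minimum count 10, two-sided quasi-likelihood test, Benjamini-Hochberg, threshold 0.05). The script was tested on simulated data. CPM are counts scaled to effective library size, and SE were derived from the test statistic. The labels do not say whether replicates are separate cultures, so a p-value reflects the spread among libraries, which may be technical. Regions and lists were chosen with earlier results of these data known. Named regions were the 3 highest H3K4me3 scores per class of H3K27me3 at D4, the 5 with most other lists, and the nearest to each limit of the rule. Changed machinery genes are named, with values for up to 4 per group by smallest p, except for items that are not reported here. Values of genes that were not called, and those of Bmi1, were added after they were seen. A planned link to genes was not run, since no annotation of build mm9 was used here.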

Additional observations from a re-analysis of the deposited data

How the results depend on the processing

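The rule moved the number of regions. It was 50 with at least 50% of the H3K4me3 peak covered by H3K27me3 in MEF, 71 with as many MEF as ES H3K27me3 peaks, 82 without an ES peak within 5 kb, and 2 with the upper 50% of MEF peaks by score. With 50% of the region covered, H3K27me3 was at 56.1% in D4 shUbc9 and 61.8% in D4 shCtrl. With the upper 50% of each list by score, it was at 52.8% and 65.0%, Sox2 at 61.8% and 58.5%, both marks at 7 and 5 regions, and in ES cells H3K4me3 at 81.3% and H3K27ac at 15.4%.

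The difference of H3K27me3, D4 shUbc9 minus D4 shCtrl, was -8.94 percentage points and negative under every alternative run, at -2 over the 50 regions, -2.82 over the 71, -8.54 over the 82, -5.69 with 50% covered, -4.88 with a peak within 1 kb and -12.2 with the upper 50% of peaks, and -50 over the 2 regions of the strictest rule. H3K4me3 went to 16.3 with the upper 50% of peaks, and to 2, 1.22 and 1.41 under the rules with 50, 82 and 71 regions. H3K27ac became 0.81 with the upper 50% of peaks and H3K4me1 0.81 with 50% covered. At equal list lengths Oct4 became -0.81 and Sox2 -4.07. Sox2 was 6.10 over the 82 regions, and over 2 regions it was 50, with H3K4me1 and Oct4 at -50. The cause of these shifts was not tested, beyond the fewer peaks or regions that each alternative leaves.

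Leaving out 1 RNA library gave 17 to 27 called machinery genes, 5 to 6 higher and 12 to 21 lower. Library sizes alone gave 25, DESeq2 23 and no low-count filter 26. With the replicate number as a block the count was 19, 5 higher and 14 lower. Deviations of same-numbered libraries correlated at -0.0019, -0.37 and -0.22, which showed no pairing by number. With 3 libraries a group, these values cannot exclude a pairing. No paired analysis was possible for the peaks, because each list merges its replicates. The link of regions to genes was not run.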
